A study of Homo sapiens with 6 samples.

Results

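The loops described here are those with both anchors inside 1 of 8 stretches of the human genome in which deletions and duplications recur in patients: 7q11.23, 17p11.2, 22q11.2, 15q11-q13, 16p11.2, 1q21.1, 17q12 and 17q21.31. They were chosen by position alone, from the hg19 limits given with each region below, and number 369 of the 46849 loops in the list. The list comes from Micro-C, a contact assay in which micrococcal nuclease cuts fixed chromatin down to nucleosomes before neighbouring fragments are ligated. The cells were HAP1, a near-haploid human leukaemia line. The labels name no genetic change and no drug, and the diploid fraction had been sorted by its Hoechst stain and then fixed with formaldehyde and DSG. All 6 replicates form 1 group and enter the list together. No value can therefore be given per replicate, no spread between cultures exists, and no difference between regions was tested. Intervals printed here are 95% intervals that cover counting error only and treat loops as independent, although neighbouring loops share anchors. HAP1 is 1 cell line, so what is particular to its genome is part of every replicate.

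Each of these regions is flanked, and most are interrupted, by segmental duplications, long blocks of nearly identical sequence present in several copies. When chromosomes pair out of register at such copies during meiosis, the unique sequence between them can be lost, gained or inverted. The best known results are Williams-Beuren syndrome at 7q11.23 (which holds ELN, the elastin gene), Smith-Magenis syndrome at 17p11.2 (RAI1, a chromatin regulator), DiGeorge syndrome at 22q11.2 (TBX1, a T-box transcription factor) and the Prader-Willi and Angelman syndromes at 15q11-q13. That last region is imprinted, with SNRPN expressed from the paternal copy and the ubiquitin ligase gene UBE3A from the maternal copy in neurons. The 17q21.31 region holds MAPT (tau) and KANSL1 in a stretch that exists in both orientations in people. Reads from near-identical copies often cannot be placed uniquely, which leaves fewer usable contacts in such blocks. Where these genes and the duplicated blocks lie relative to the loops was not analysed here. Loops are named by hg19 position.

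A loop in the list is a pair of anchors, 5 kb or 10 kb wide, that touch more often than their surroundings. Its observed count is the number of contacts at the pixel where the anchors cross. The expected count is what a ring of pixels around it (the donut) predicts, and the ratio of the 2 is called strength below. Observed counts of the members ran from 10 to 334 with a median of 36 (interval 33 to 38), against a median of 31 in the whole list. The caller merges adjacent significant pixels, and the median member combines 3 of them. Single loops are thus known only roughly: 11 contacts have an exact Poisson interval of 5.49 to 19.7, and 60 contacts one of 45.8 to 77.2.

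Counted with both anchors inside, the 8 regions as a set held fewer and shorter loops than the genome at large. Wider stretches free of anchors lay between the loops. The regions held 13.1 loops per Mb over 28.2 Mb (interval 11.8 to 14.5), against 16.0 per Mb in the whole list. Part of this is built in, since loops that cross an end are left out here but not in the whole list. With at least 1 anchor inside, 411 loops counted in place of 369. That count errs the other way, since a crossing loop counts in full although 1 of its anchors lies outside. Density relative to the whole list was then 0.919 at 7q11.23, 0.618 at 15q11-q13 and 0.743 at 1q21.1. At the other regions it ran from 1.04 (16p11.2) to 1.50 (17q12). The median span was 105 kb (interval 90 to 125) against 160 kb. Loops under 100 kb made up 47.2% of members (174 of 369, interval 42.0 to 52.4%), where the background share in the whole list was 36.3%. Loops of 500 kb to 1 Mb made up 6.78% (25 loops, interval 4.43 to 9.84%) against 12.3%. A loop had to fit inside its region to be a member, which by itself limits long spans in the smaller regions. Loops of 1 Mb or more nevertheless made up 3.79% of members (14 loops) against 3.83% of all loops, and they are described at the end.

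Of 282 windows of 100 kb in the regions, 106 held no anchor (37.6%, interval 31.9 to 43.5%), where the background share was 27.4%. Anchor-free stretches of at least 200 kb covered 11.9 Mb, or 42.2% of the regions. In the whole list, stretches of 200 kb to 3 Mb covered 23.5% of the length between first and last anchors. Loops under 1 Mb passed over 63.9% of the sequence of the 8 regions, against 80.5% genome-wide. With all loops counted the shares were 90.0% and 88.1%. These shares include loops that cross a region's ends. The rise with long loops took place mainly at 17p11.2 (66.9 to 97.2%), 15q11-q13 (45.0 to 89.5%) and 1q21.1 (46.3 to 100%). It rests on few loops there, with 10 to 60 contacts each and 1 to 5 merged pixels.

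Strength was near that of all loops. Members had a median ratio of 3.33 (interval 3.14 to 3.51) against 3.55, and relative to loops of like span it was 1.01 times the genome-wide median (interval 0.967 to 1.05). Loops of ratio 10 or more numbered 25 (6.78%), where the background was 5.65%. Sharing of anchors was close to the background too: 320 members (86.7%, interval 82.8 to 90.0%) shared a merged anchor with another loop, against 89.7% of all loops. Of the 408 merged anchors, 177 (43.4%) held at least 2 loops and 19 (4.66%) at least 5, against backgrounds of 45.9% and 6.71%.

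**Figure D1:**
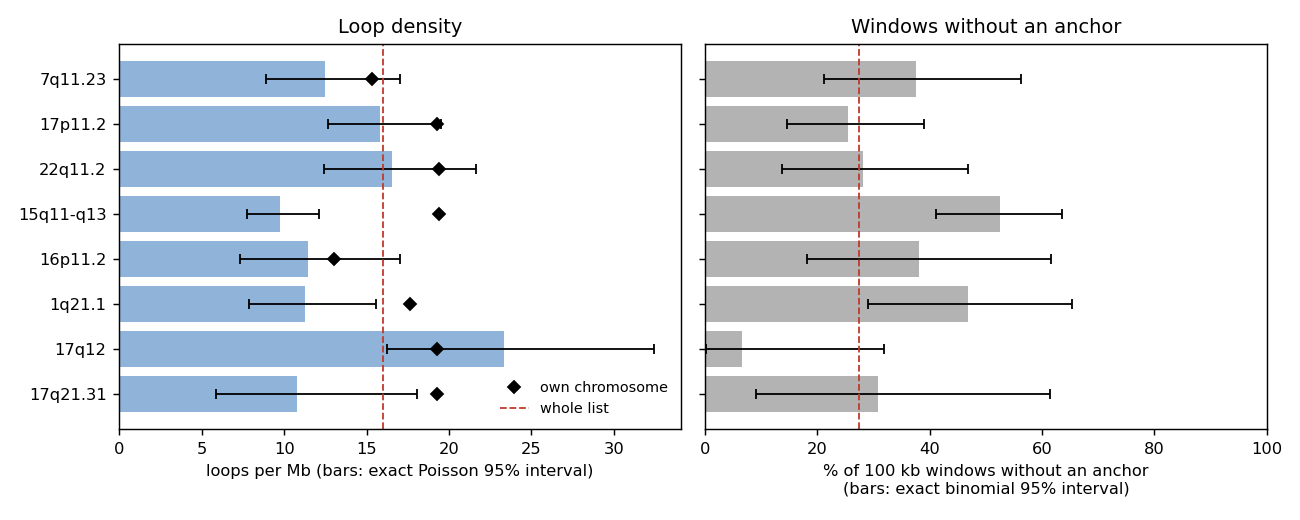
Loops per Mb (left) and the share of 100 kb windows without an anchor (right) in each region, with exact Poisson and exact binomial 95% intervals. Dashed lines mark the whole list (16.0 loops per Mb and 27.4% of windows) and diamonds each region's own chromosome. The 17q12 region stands highest on the left with 23.3 loops per Mb and lowest on the right with 6.67% of windows, while 15q11-q13 is the reverse with 9.76 and 52.4%.

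The regions differed widely among themselves. Most densely looped was 17q12 with 23.3 loops per Mb (interval 16.3 to 32.5), and least 15q11-q13 with 9.76 (7.74 to 12.1). Between them lay 22q11.2 with 16.6, 17p11.2 with 15.8, 7q11.23 with 12.5, 16p11.2 with 11.4, 1q21.1 with 11.3 and 17q21.31 with 10.8. Intervals of neighbours in this order overlap, and those of 17q12 and 15q11-q13 do not. The intervals of 15q11-q13 (7.74 to 12.1) and 1q21.1 (7.88 to 15.6) lie wholly below the genome-wide 16.0, and that of 17q12 lies wholly above it. Each region except 17q12 was also below its own chromosome. At 16p11.2 this turned when loops with at least 1 anchor inside were counted in full, with 16.7 per Mb against 13.0 on chromosome 16. At the other 6 it did not, although such a count raises the density by construction. The largest shortfall was at 15q11-q13, with 0.503 times the density of chromosome 15. When length was counted only as 100 kb windows that hold an anchor, the density of 15q11-q13 was 0.932 of the genome-wide value, against 0.611 over its full length.

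**Figure D2:**
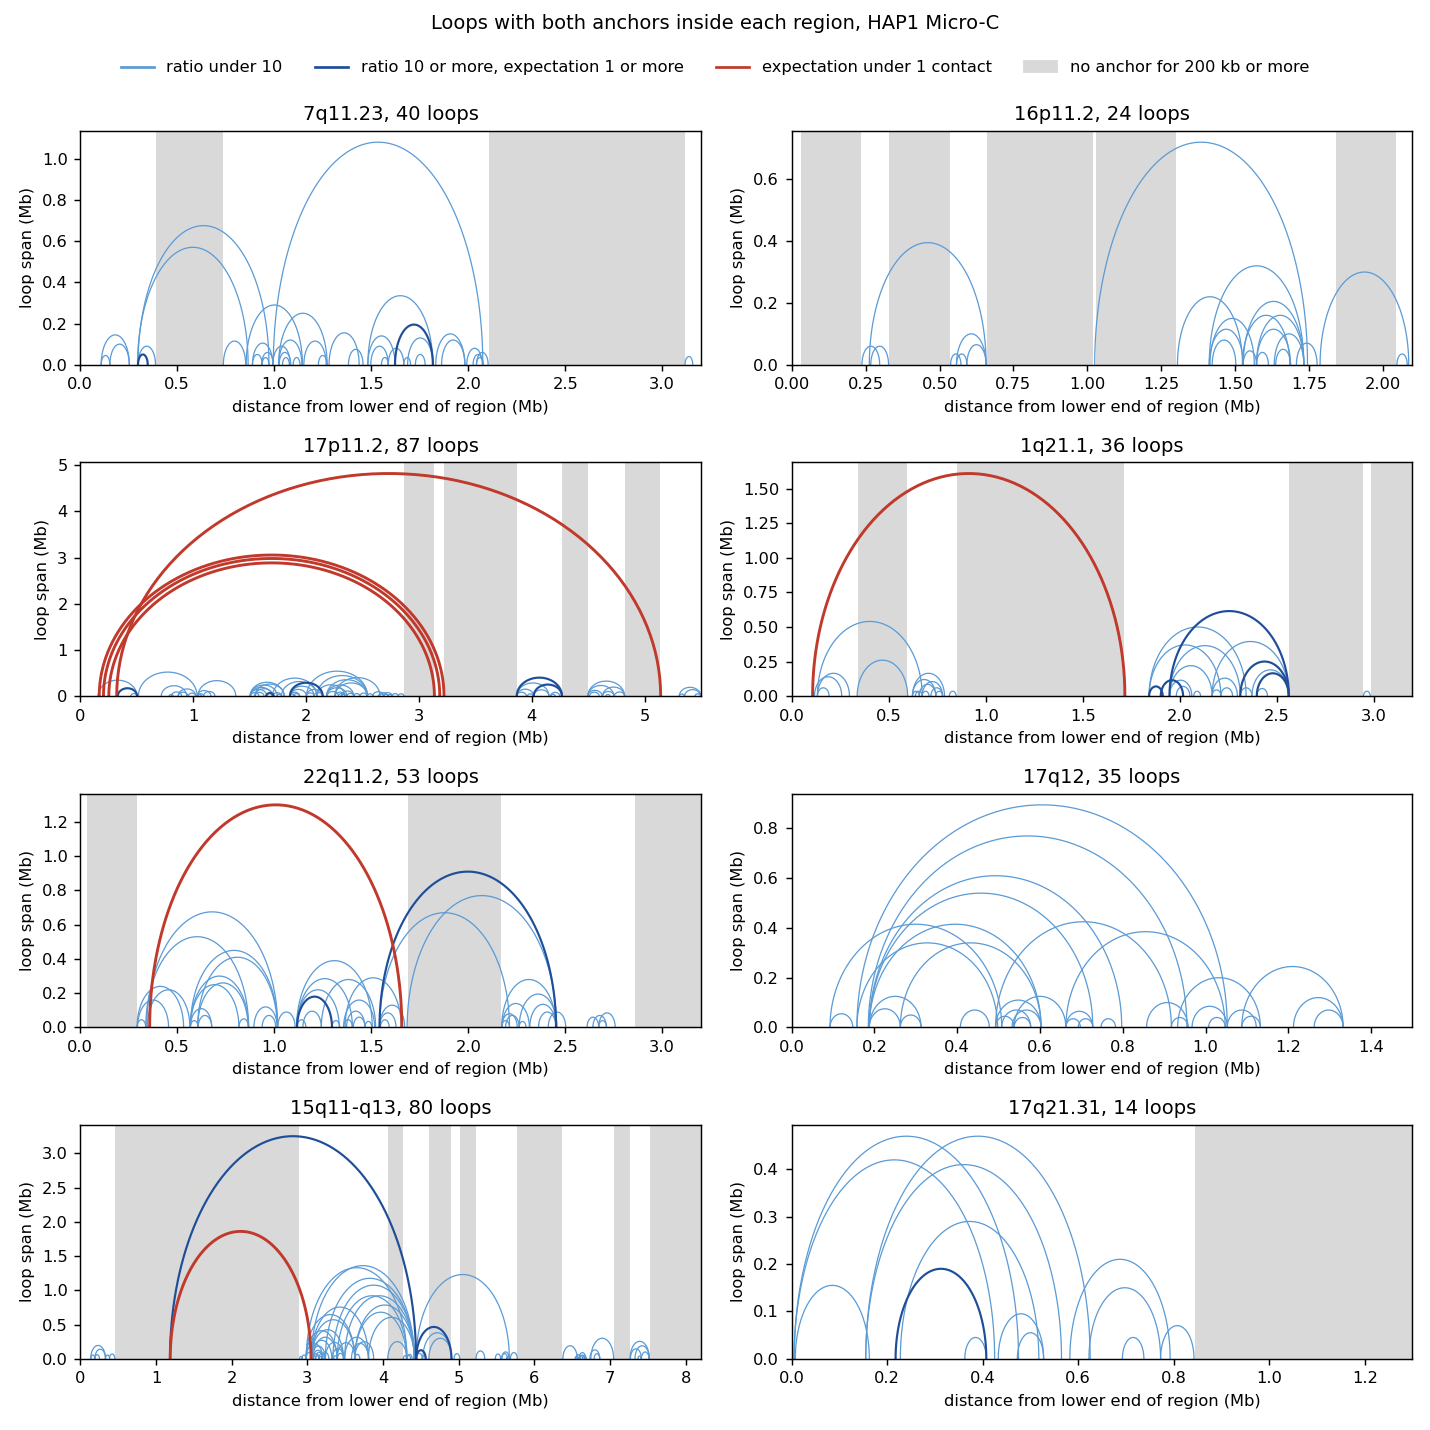
Arcs of the member loops in each region against distance from its lower end (Mb), drawn to a height equal to their span (Mb). Grey bands are stretches of at least 200 kb without an anchor, which take up from 0% (17q12) to 59.3% (16p11.2) of a region. Red arcs are the 7 members with an expectation under 1 contact, 4 of them in 17p11.2, and dark blue arcs are the other members of ratio 10 or more.

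At 7q11.23 (chromosome 7, 72.0 to 75.2 Mb) nearly all looping took place in 1 block. Of its 40 loops, 32 lay between 72735001 and 74105000, at 23.4 loops per Mb (interval 16.0 to 33.0). Blocks, here and below, are what remains between anchor-free stretches of 200 kb or more. Their densities are thus raised by construction and are not comparable with the whole list, which keeps such stretches. Beyond this block a stretch of 1.01 Mb (74105001 to 75115000) held no anchor and was bridged by 0 loops. Below the block another of 345 kb (72390001 to 72735000) was bridged by 2 loops with 12 and 20 contacts. The strongest member with an expectation of at least 1 joined 73620001 to 73625000 with 73815001 to 73820000, with 109 contacts against 8.10 expected (ratio 13.5, 13 pixels). The member with most contacts, 139 against 51.4, was a 60 kb loop from 72930001 to 72990001 with 10 kb anchors. The longest was of 1.08 Mb, from 72990001 to 74070001 (14 contacts, 2.91 expected). Both of these used the anchor at 72990001 to 73000000. Of 3 anchors with 4 loops each, that at 74070001 to 74080000 had the most contacts (254 summed). All 4 of its loops ran to lower coordinates. Above it in the block was only the anchor at 74100001 to 74105000, closer than 35 kb, the shortest span in the list. The next anchor, at 75115001 to 75120000, lay beyond the stretch of 1.01 Mb. Why no loop ran upward was not tested. No anchor in this region held 5 loops.

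In the small block at the lower end of 7q11.23 (72000001 to 72390000) contact depth was low. Contact depth is the expectation of a 5 kb loop relative to loops of like span in the whole list. All 5 loops there lay below 1, with a median of 0.379 and a range of 0.115 to 0.453. In the main block the median was 0.919 (interval 0.842 to 1.15, 27 loops). Over the whole region it was 0.872 (interval 0.679 to 0.984, 34 loops). From the 10 kb loops the regional value, on the log2 scale, was 0.030 in place of -0.20, so the shortfall was not seen at both resolutions. The 10 kb value rests on few loops, since 34 of the 40 had 5 kb anchors.

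The 17p11.2 region (chromosome 17, 15.4 to 20.9 Mb) held the most members, 87. Of these, 62 lay in a block of 2.87 Mb below 18270000, at 21.6 loops per Mb (interval 16.6 to 27.7). Smaller blocks followed at 19265001 to 19670000 (9 loops), 19895001 to 20225000 (8 loops) and 20540001 to 20900000 (4 loops). From the large block to the last of these, 4 stretches of 225 to 640 kb held no anchor. The longest of these, 18625001 to 19265000, was bridged by 1 loop. The member with most contacts joined 17045001 to 17050000 with 17110001 to 17115000, 65 kb apart, with 254 contacts against 15.8 expected (ratio 16.0, 18 pixels). The strongest with an expectation of at least 1 joined 15730001 to 15735000 with 15900001 to 15905000 (60 contacts, 3.49 expected, ratio 17.2). The horizontal surroundings of that loop gave a higher expectation, 7.03.

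In 17p11.2, 3 anchors held 5 loops each. That with the most contacts (315 summed) lay at 17255001 to 17260000. All 5 of its loops ran upward, with 43 to 113 contacts and strengths from 3.26 to 14.9. The farthest of them, 290 kb away at 17545001, was also the strongest. The blocks of 9 and 8 loops were each framed by a loop that nearly spanned them. In the first, 19265001 to 19270000 met 19665001 to 19670000 with 78 contacts against 7.32 (ratio 10.6). In the second, 19895001 to 19900000 met 20220001 to 20225000 with 26 against 2.70 (ratio 9.62). These framing loops were chosen after their values were seen. The median strength of loops was 5.44 in the first block and 6.57 in the second, against 3.31 in the large block, but with 9 and 8 loops the intervals (2.23 to 10.6 and 2.25 to 9.94) include that value.

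The 22q11.2 region (chromosome 22, 18.6 to 21.8 Mb) was close to the genome in density, with 53 loops at 16.6 per Mb (interval 12.4 to 21.7). It fell into a block of 36 loops between 18890001 and 20290000 and one of 14 loops between 20770001 and 21460000. The 480 kb between them held no anchor and was bridged by 3 loops with 15 to 23 contacts, each resting on a single pixel. Single-pixel loops made up 18.9% of the region's members (10 of 53, interval 9.44 to 32.0%), where the background was 8.94%. This was not particular to 22q11.2. The share was 20.8% at 16p11.2 (5 of 24) and 12.2% over the 8 regions (45 of 369). Only 7q11.23 (7.5%) and 17q12 (2.86%) lay below the background. The member with most contacts was also the strongest with an expectation of at least 1. It joined 19715001 to 19720000 with 19895001 to 19900000, 180 kb apart (136 contacts, 10.2 expected, ratio 13.4, 23 pixels).

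Anchors were used most in 22q11.2 at 19160001 to 19170000 and at 21050001 to 21060000, with 6 loops each. The first sent 5 of its 6 loops to higher coordinates, over 40 to 450 kb. The second received all 6 from lower coordinates, over 90 to 910 kb, with a median ratio of 8.84 against 4.00 at the first. Of those 6, 2 crossed the anchor-free 480 kb. The stretch from 21460001 to 22000000, which runs past the upper limit, was bridged by 2 loops that ended at 22000001 to 22010000, with 16 and 21 contacts. The stretch from 18635001 to 18890000 was bridged by 0.

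The 15q11-q13 region (chromosome 15, 22.7 to 30.9 Mb) was the longest of the 8. It had 8 anchor-free stretches of 200 kb or more, together 4.61 Mb or 56.2% of its length. A lone anchor at 23880001 to 23890000 stood between the 2 longest within the region's limits, 23160001 to 23880000 (720 kb) and 23890001 to 25595000 (1.705 Mb). The second was bridged by 2 loops, which both started from that anchor. They ran to 25745001 (16 contacts, 0.830 expected, single pixel) and to 27130001 (11 contacts, 1.09 expected, 2 pixels). The latter, at 3.25 Mb, was the longest loop of the region, and its largest q-value was 0.0869. The first of the 2 stretches was bridged by 0 loops.

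In 15q11-q13, 30 of 80 members lay in 1 block, 25595001 to 26765000, at 25.6 per Mb (interval 17.3 to 36.6). Its anchor at 25750001 to 25760000 held 7 loops, all to higher coordinates, up to 1.36 Mb away. One of these, to 25800001, had the most contacts in the region (168 against 76.3, 10 kb anchors, 1 pixel). The anchor at 26320001 to 26330000 also held 7, of which 3 ran down and 4 up. Beyond the block, an anchor at 27110001 to 27115000 held 6 loops, all to lower coordinates, over 605 to 1360 kb with 10 to 18 contacts. It was chosen after its values were seen. Next to it, 27130001 to 27140000 held 5 loops, 4 of them to higher coordinates, with a median ratio of 10.1. The strongest of the region with an expectation of at least 1 was among these, from 27135001 to 27600001 (19 contacts, 1.28 expected, ratio 14.8). Loops of these neighbouring anchors thus pointed away from each other, all 6 downward at 27110001 and 4 of 5 upward at 27130001.

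Counts in 15q11-q13 were the lowest of the 8 by median, 24.5 contacts, with an interval (20 to 32) that takes in the 31 of the whole list. Contact depth was 0.933 of the genome-wide value (interval 0.828 to 1.01), and from 10 kb loops the log2 value was -0.41 in place of -0.10. Chromosome 15 as a whole had a depth of 1.32, the highest among the chromosomes of the regions. Whether this bears on the region's low density relative to its chromosome (0.503) was not tested. Contact depth varied along the region. In the block with 30 loops the median depth was 1.06 (18 of 27 loops above 1), while at 27925001 to 28475000 it was 0.523 (interval 0.327 to 0.661, 0 of 6 loops above 1). Of the region's loops, 62.5% had each of their 4 q-values at or below 0.1 (interval 51.0 to 73.1%), which does not stand apart from the background of 72%. Among those the median strength was 3.56, outside the interval of 2.91 to 3.51 around the value of 3.21 for all 80 loops. The median over the whole list moved likewise, from 3.55 to 4.20.

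The 16p11.2 region (chromosome 16, 28.3 to 30.4 Mb) held 24 loops, 14 of them in a block of 540 kb from 29600001 to 30140000. That block carried 25.9 loops per Mb (interval 14.2 to 43.5). Its contact depth was 1.44 (interval 1.03 to 1.83), with 10 of 11 loops above 1. Anchor-free stretches of 200 kb or more, 5 in number, took up 59.3% of the region, the largest share of the 8. The longest, 28960001 to 29320000, was bridged by 0 loops. The strongest loop joined 29710001 to 29715000 with 30030001 to 30035000 (62 contacts, 7.57 expected, ratio 8.19, 11 pixels). It spanned much of the block and shared its lower anchor with another of 115 kb (69 contacts, ratio 5.83). The member with most contacts ran from 29820001 to 29980001 (103 against 47.9). The longest, of 720 kb from 29320001 to 30040001 (17 contacts, 3.67 expected), bridged the 270 kb without an anchor below the block. From 10 kb loops the regional depth was -0.33 on the log2 scale, in place of 0.10, but 20 of the 24 loops had 5 kb anchors.

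At its ends 16p11.2 was less closed than most. Of the 35 loops with an anchor inside, 11 (31.4%) crossed an end, 4 below and 7 above. Its joint most used anchor, 30380001 to 30390000, had 5 loops, of which 3 ran out of the region to as far as 30930001. The member just inside that end joined 30345001 to 30350000 with 30380001 to 30385000 (63 contacts, 18.7 expected), and the loop just outside it joined that same upper anchor with 30415001 to 30420000 (85 contacts, 25.8 expected).

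The 1q21.1 region (chromosome 1, 144.8 to 148.0 Mb) stood out by contact counts. Its 36 loops had a median of 68 contacts (interval 43 to 101), the highest of the 8, and all had 5 kb anchors. Contact depth was 1.74 (interval 1.19 to 2.11), with 28 of 36 loops above 1, against 1.17 for chromosome 1 as a whole. Depth declined from one block to the next along the region. The 3 loops at 144800001 to 145140000 had a median of 3.49 (range 3.34 to 4.24). The 10 loops at 145395001 to 145650000 had 2.18 (interval 1.71 to 3.31), and the 19 loops at 146515001 to 147365000 had 1.37 (interval 1.03 to 1.86). The single loop beyond them, at 147745001 to 147785000, had 0.328. The range of the lowest block does not meet the interval of the block of 19 loops.

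**Figure D3:**
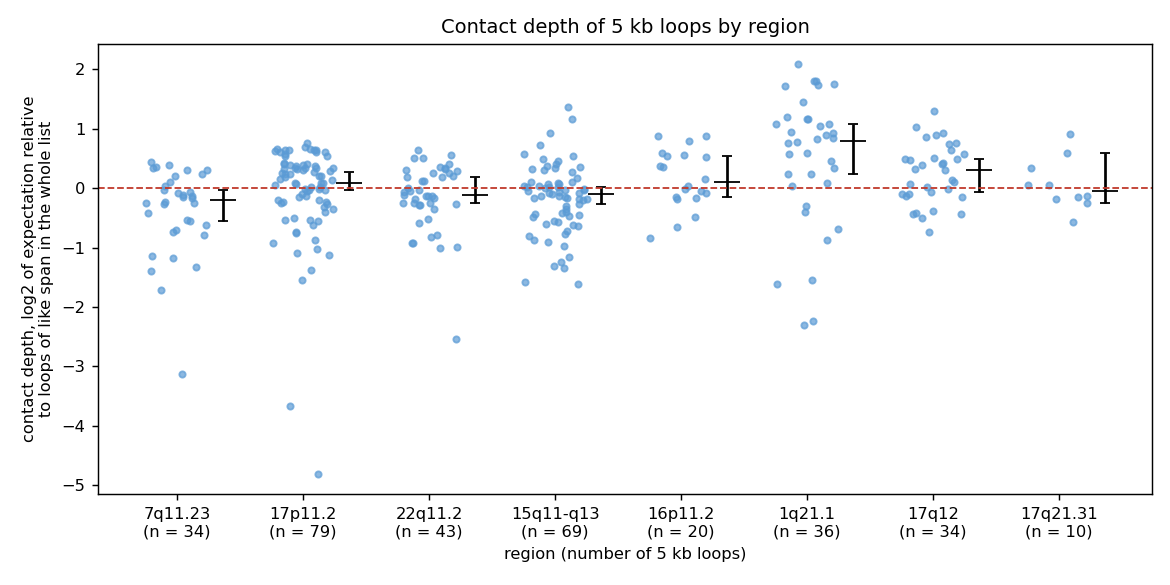
Contact depth of each 5 kb member loop (points), as the log2 of its expectation relative to loops of like span in the whole list (dashed line at 0), with the median and its 95% interval in black. At 1q21.1, 28 of 36 points lie above 0 and the median is 0.80; at 7q11.23 the median is -0.20, and the other 6 medians lie between -0.12 and 0.31.

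The loops of the block at 146515001 to 147365000 in 1q21.1 were strong, with a median ratio of 6.73 (interval 3.04 to 10.6). Of the 6 members of ratio 10 or more in the region, 5 lay there. The strongest with an expectation of at least 1 joined 146700001 to 146705000 with 146815001 to 146820000 (54 contacts, 1.95 expected, ratio 27.7). Its 4 expectations lay between 1.61 and 2.06. Close by, 146640001 to 146645000 met 146710001 to 146715000 with 301 contacts against 23.3 (ratio 12.9), and 147010001 to 147015000 met 147070001 to 147075000 with 334 against 48.2, the most of any member. The anchor at 147360001 to 147365000, at the upper end of the block, received 5 loops from lower coordinates, with a median ratio of 10.6 over 165 to 615 kb. Beyond it lay 380 kb without an anchor.

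Stretches of 200 kb or more without an anchor took up 53.6% of 1q21.1. Below the block of 19 loops the stretch from 145650001 to 146515000 (865 kb) was bridged by 2 loops. One of them, from 144905001 to 146515001, ended on the first anchor after the stretch (24 contacts, 0.398 expected, single pixel). The other, from 145110001 to 149220001, crossed the upper limit and spanned 4.11 Mb (19 contacts, 1.48 expected).

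The 17q12 region (chromosome 17, 34.8 to 36.3 Mb) was the most evenly looped. Its 35 loops left no anchor-free stretch of 200 kb, and only 1 of 15 windows of 100 kb was empty (6.67%, interval 0.169 to 31.9%). Loops under 1 Mb passed over 94.0% of it. The loops were modest in strength, with a median ratio of 3.14 and a highest of 6.54, and 0 reached 10. The strongest, from 34985001 to 35400001 (66 contacts, 10.1 expected, 16 pixels), was 1 of 6 loops that left the anchor at 34980001 to 34990000, all to higher coordinates over 75 to 770 kb. The member with most contacts was a 35 kb loop from 35460001 to 35495001 (93 against 38.8). The longest, of 895 kb from 34955001 to 35850001, had 10 contacts against 2.69 and a largest q-value of 0.615. Only 1 of 36 loops with an anchor inside crossed an end.

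The 17q21.31 region (chromosome 17, 43.5 to 44.8 Mb) held 14 loops, the fewest, all of them below 44345000. Above that point 565 kb held no anchor, of which 455 kb lie inside the region. The member with most contacts was also the strongest, from 43715001 to 43905001 (107 contacts, 8.70 expected, ratio 12.3, 14 pixels). It was followed in strength by a loop from 44080001 to 44290001 (45 contacts, 5.80 expected, single pixel). The 2 longest, of 470 kb each, differed in strength: that from 43500001 to 43970001 had a ratio of 2.25 and that from 43650001 to 44120001 one of 5.40. The median ratio, 2.76, was the lowest of the 8, but its interval (2.25 to 5.40) takes in every other regional median. Of 23 loops with an anchor inside, 9 crossed an end (39.1%). This share too depends on where the limits fall, and the lower one falls on the anchor at 43500001 to 43510000. With the crossing loops counted in full, density was 1.11 of the genome-wide value, against 0.674 for loops with both anchors inside. The first value is raised and the second lowered by construction. The 2 values therefore do not place the region above or below the genome.

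Long loops with a donut expectation under 1 contact occurred in 4 of the 8 regions. Of the 14 members of 1 Mb or more, 7 had an expectation under 1 contact, 6 rested on a single pixel and 4 had a ratio of 50 or more. Among all loops of 1 Mb or more the background shares were 8.18%, 25.3% and 5.01%. Over all members, the share with an expectation under 1 contact was 1.90% (7 of 369), against a background of 0.465%. With so small a denominator a ratio is imprecise, so contacts are given for each loop below. The surroundings matter too: in 5 of the 7 members the largest of the 4 expectations was also under 1 contact, and in the other 2 it reached 2.00 and 2.24.

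The longest member, in 17p11.2, joined 15720001 to 15725000 with 20540001 to 20545000, 4.82 Mb apart. It had 60 contacts in a single pixel, where the donut predicted 0.0699 and no other surrounding predicted more. At 22q11.2, 18955001 to 18960000 met 20255001 to 20260000 (1.30 Mb) with 26 contacts in a single pixel against 0.336. At 1q21.1 the loop of 1.61 Mb already described had 24 against 0.398. In all 3 loops the contacts fell in 1 pixel, and none of the 4 kinds of surroundings predicted as much as 1 contact.

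In 17p11.2 another 3 loops of about the same span lay side by side. They joined 15565001 with 18620001 (19 contacts, 0.753 expected by the donut and 2.24 by the highest of the other surroundings), 15600001 with 18580001 (11 contacts, 0.688 expected) and 15650001 with 18535001 (16 contacts, 0.153 expected), over 3.055, 2.98 and 2.885 Mb. Each step up at the lower anchor was matched by an equal step down at the upper anchor, so the midpoints' sums differed by 0 kb in all 3 pairs. They were the only such pairs (sums within 10 kb) among 24 pairs of neighbouring member loops of 500 kb or more. In the whole list the share was 2.87% of 4984 pairs, and 35.4% of the 79 pairs of 2 Mb or more. On a contact map the 3 pixels form a line at right angles to the diagonal. Their upper anchors were the only ones in the 90 kb from 18535001 to 18625000, which lie between 2 anchor-free stretches and held 0 loops of their own.

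**Figure D4:**
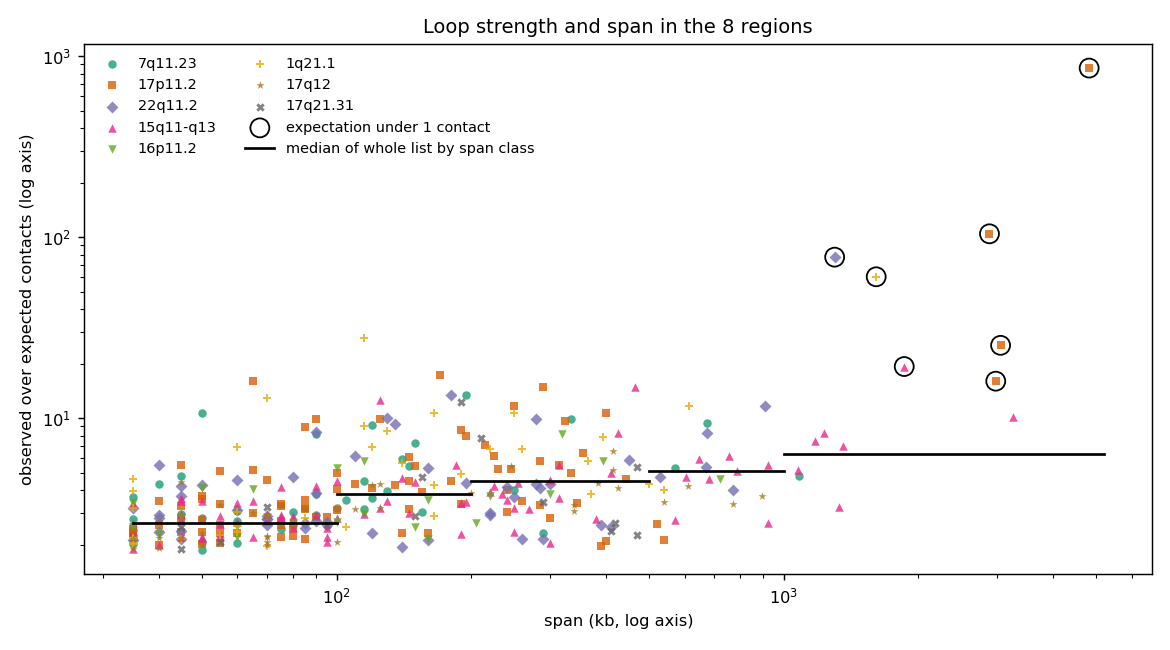
Ratio of observed to expected contacts against span (both log axes) for the 369 members, by region, with the whole list's median in each span class as black lines. The 7 ringed loops, of 1.30 to 4.82 Mb, have an expectation under 1 contact and ratios from 16.0 to 858, while the 7 other loops of 1 Mb or more have ratios from 3.22 to 10.1.

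Loops of the same kind crossed the ends of the regions. Of the 42 loops with 1 anchor inside and the other outside, 12 had a donut expectation under 1 contact, and in 8 of these the largest of the 4 was under 1 as well. At 7q11.23, 6 of the 7 loops across the lower end had a donut expectation under 1, and that of the remaining one was 1.26. The largest of the 4 expectations ran from 0.585 to 2.74 among these 7. All 7 joined the lowest part of the region, 72015001 to 72245000, with sites 5.29 to 5.73 Mb below, with 14 to 47 contacts. Like the 3 in 17p11.2 they lay along a line at right angles to the diagonal. In 19 of their 20 neighbouring pairs the sums differed by no more than 10 kb, and in the other by 15 kb. These pairs and the 3 of 17p11.2 are part of the 79 in the whole list, and among the 56 pairs elsewhere 6 met the criterion. No loop crossed the upper end of 7q11.23. At 17p11.2 a loop from 20750001 to 22045001 had 44 contacts against 0.0591, one from 20770001 to 21515001 had 21 against 0.243, and one from 14075001 to 15475001 had 11 against 0.0596.

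The only loop across an end of 15q11-q13 joined 28390001 to 28395000 with 31120001 to 31125000, 2.73 Mb apart (35 contacts, 0.103 expected). Across the upper end of 16p11.2, 30135001 to 30140000 met 33950001 to 33955000, 3.815 Mb apart (30 contacts, 0.0245 expected). Across that of 17q21.31, 44285001 to 44290000 met 45175001 to 45180000 (57 contacts, single pixel). The donut predicted 0.824 there and the highest of the other surroundings 1.44. Members and crossing loops together gave 19 loops with an expectation under 1 contact. All 19 rested on 1 or 2 pixels (12 of them on 1), and 18 had 5 kb anchors. In the whole list 68.8% of the 218 such loops rested on a single pixel.

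These loops often ended at the edge of an anchor-free stretch. Of the 19, 9 had an anchor within 10 kb of a stretch of 200 kb or more. The background was 44.5% for loops with an expectation under 1 contact and 28.6% for loops of 1 Mb or more, so the share is near that of its own kind. Among all members it was 18.7% (69 of 369), against a background of 11.5%. The regions also had a larger anchor-free share (42.2% against 23.5%) and fewer loops per Mb. Whether the share of members beside a stretch is linked to these was not tested. Of the 27 stretches of 200 kb or more in the 8 regions, 23 were bridged by at least 1 loop. That is near the background of 82% for stretches of 200 kb to 3 Mb, but some of these bridges were the same loop. At 17p11.2 the stretches of 640, 315 and 225 kb were bridged only by the single-pixel loop of 4.82 Mb. At 15q11-q13 those starting at 28475001, 29750001 and 30220001 were bridged only by the crossing loop with 35 contacts. Both loops had an expectation under 1 contact. The 4 without a bridge were the one of 1.01 Mb at 7q11.23, that of 720 kb at 15q11-q13, that of 255 kb at 22q11.2 and that of 360 kb at 16p11.2.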

How the data were processed

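The 6 Micro-C replicates of HAP1 were not told apart in the 1 loop list used here. Per the file headers, loops were called with juicer_tools 1.22.01. The submitters' processing notes name BWA and hg19. How replicates were pooled, the read depth and the caller's settings are not stated in the labels or headers. The authors deposited observed contacts per loop as raw counts, 4 expected counts, their q-values (adjusted p-values), the count of merged pixels and the cluster radius in bp.

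Analyses were run in Python 3.11.15 with scipy 1.17.1, numpy 2.4.6 and pandas 2.3.3, and plots drawn with matplotlib 3.10.9. Span was the distance between anchor midpoints. Genome-wide density used the length from first to last anchor of each chromosome. Anchors overlapping by at least 1 bp were merged. Contact depth and like-span strength were taken relative to the median of 40 span bins. Intervals are exact Poisson, exact binomial, or order-statistic for medians (fewer than 6 loops: the range). Functions were tested on simulated loops. Per region, the named loops are the strongest with an expectation of at least 1, that with most contacts, the longest, the most used anchor, the longest anchor-free stretch with its bridging loops, and pairs with equal anchor sums. The regions and rules were chosen with earlier results of these data known. Sequences and gene annotation of hg19 were not used here.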

Additional observations from a re-analysis of the deposited data

How the results depend on the processing

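Of 135 alternative values for 48 regional results, 122 lay inside the interval around the reported value (for densities, within 1.5 times of it). For densities this limit is about as wide as the regions' own departures from the genome-wide value (0.611 to 1.46), so passing it says little. Changes of side passed too. Relative density went from 0.715 to 1.04 at 16p11.2 with loops of at least 1 anchor inside, and from 1.04 to 0.923 at 22q11.2 without single-pixel loops. With anchors within 10 kb counted as the same, the share of loops sharing an anchor was 96.6% at 17p11.2, 97.5% at 15q11-q13, 95.8% at 16p11.2, 91.7% at 1q21.1 and 100% at 17q12, and 96.8% in the whole list. With 50 kb windows the empty share was 40.9% at 17p11.2 and 66.5% at 15q11-q13, against 45.2% genome-wide. From 10 kb loops the log2 contact depth was 0.030 at 7q11.23, -0.41 at 15q11-q13 and -0.33 at 16p11.2, and 1q21.1 had no 10 kb loop to give a value. These values rest on few loops, since 34 of 40, 69 of 80 and 20 of 24 members there had 5 kb anchors. With loops kept only where all 4 q-values were 0.1 or less, median strength at 15q11-q13 was 3.56. Density relative to the genome was 0.932 at 15q11-q13 with length counted as windows that hold an anchor, and 1.11 at 17q21.31 with loops of at least 1 anchor inside. The causes were not tested, except that wider matching and narrower windows move the shares by construction. Counting crossing loops in full likewise raises a region's density by construction. No paired analysis was possible because the list gives no values per replicate. Counts of 10 to 60 contacts limit the precision of single long loops.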
